A study of Homo sapiens with 20 samples.

Results

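BEAS-2B cells, an immortalised line of human bronchial epithelium, were compared after 6 weeks and after 3 days of exposure to nickel chloride, in both cases without a period in nickel-free medium. The libraries were chosen by their titles: Ni_6W replicates 1 and 2 were set directly against Ni_3D replicates 1 and 2, so 4 of the 20 libraries of the series form the comparison. The labels give several unnamed doses for the 6-week exposure and no dose for a single library, so a difference in dose between Ni_3D and Ni_6W cannot be told apart from a difference in time. Unexposed cells served as Control_3D (4 libraries) and Control_6W (2 libraries) and are used here for reference levels. With the Ni_3D+14D and Ni_6W+2W libraries, taken after nickel, they also entered the fit that set the spread behind each test. All groups are total RNA of the same line grown in the same medium. Whether the replicates of a group were grown separately is not in the labels. Each p-value reflects a spread shared over the 14 libraries that are not clones, so it also depends on the other groups. That spread could be technical. Libraries of the 2 exposures may also differ in time in culture and in preparation, which cannot be told apart from the length of exposure.

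Nickel ions are known to interfere with the iron-dependent prolyl hydroxylases that mark hypoxia-inducible factor (HIF) for degradation, so that HIF target genes, among them glucose transporters and enzymes of glycolysis, are switched on in the presence of oxygen. Cholesterol supply is governed by SREBP2, a membrane-bound transcription factor that is released when sterols are scarce and raises the genes of sterol synthesis and uptake. INSIG proteins hold SREBP2 back in the endoplasmic reticulum when sterols are abundant.

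Depth differed between the 4 libraries. The total count was 48122350 and 88848786 reads in Ni_3D replicates 1 and 2, and 24181686 and 10581338 reads in Ni_6W replicates 1 and 2. Levels are given as CPM (reads scaled to normalised library size). For the correlation of libraries, log2 CPM were scaled to the summed reads of the genes compared, without normalisation. Across genes, which are not independent replicates, the correlation was 0.981 between the 2 Ni_3D libraries, the highest of the 6 pairs. It was 0.950 between the 2 Ni_6W libraries, the lowest. Ni_6W replicate 2 was closer to Ni_3D replicate 1 (0.975) than to the other Ni_6W library. The SD over genes of the log2 difference between replicates was 0.76 in Ni_3D and 0.995 in Ni_6W. Ni_3D replicate 1 held transcripts of another epithelium: 16 markers of oestrogen-responsive breast epithelium summed to 268 CPM there, beside 11.5 CPM in Ni_3D replicate 2 and 17.2 and 15.6 CPM in the Ni_6W libraries. ESR1, the oestrogen receptor, had 537 reads in Ni_3D replicate 1 and 0 in the other 3 libraries. Calls are therefore also given with Ni_3D replicate 2 alone, though not for every list. Unless said otherwise, calls in a list are from the fit with both Ni_3D libraries. Some lists without a call there, the epithelial list among them, held calls with replicate 2 alone. Bronchial basal and secretory markers summed to between 3.37 and 12.8 CPM over 14 genes in the 4 libraries, with TP63 at 0 reads in all 4 and between 6 and 10 of the 14 at 0 reads in each, so the labelled bronchial identity is not visible in these markers.

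After 6 weeks in nickel, genes of glycolysis and of the hypoxia response stood lower than after 3 days, and genes of cholesterol synthesis and uptake stood higher. Of 14927 genes tested, 43 were higher in Ni_6W (0.288%) and 62 were lower (0.415%) at a Benjamini-Hochberg adjusted p under 0.05 in edgeR's quasi-likelihood F test, 105 in all (0.703%). The 2 lists of hypoxia and glycolysis genes held 14 of the 62 lower genes and none of the higher ones, and the cholesterol list held 10 of the 43 higher genes and none of the lower ones. With Ni_3D replicate 2 alone 109 genes were higher (0.71%) and 115 lower (0.749%), 224 in all (1.46%), and 81 of the 105 genes were called again. All 105 genes kept their direction with every single one of the 4 libraries left out in turn. They were chosen by their calls in these libraries, so this was largely fixed in advance. The number of calls did not keep: it was 1 without Ni_3D replicate 2 (0.00648%), 16 without Ni_6W replicate 1 (0.104%, with 0.026% lower) and 1205 without Ni_6W replicate 2 (7.76%). DESeq2 called 565 genes higher (3.79%) and 495 lower (3.32%), 1060 in all (7.12%), the 105 among them.

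**Figure D1:**
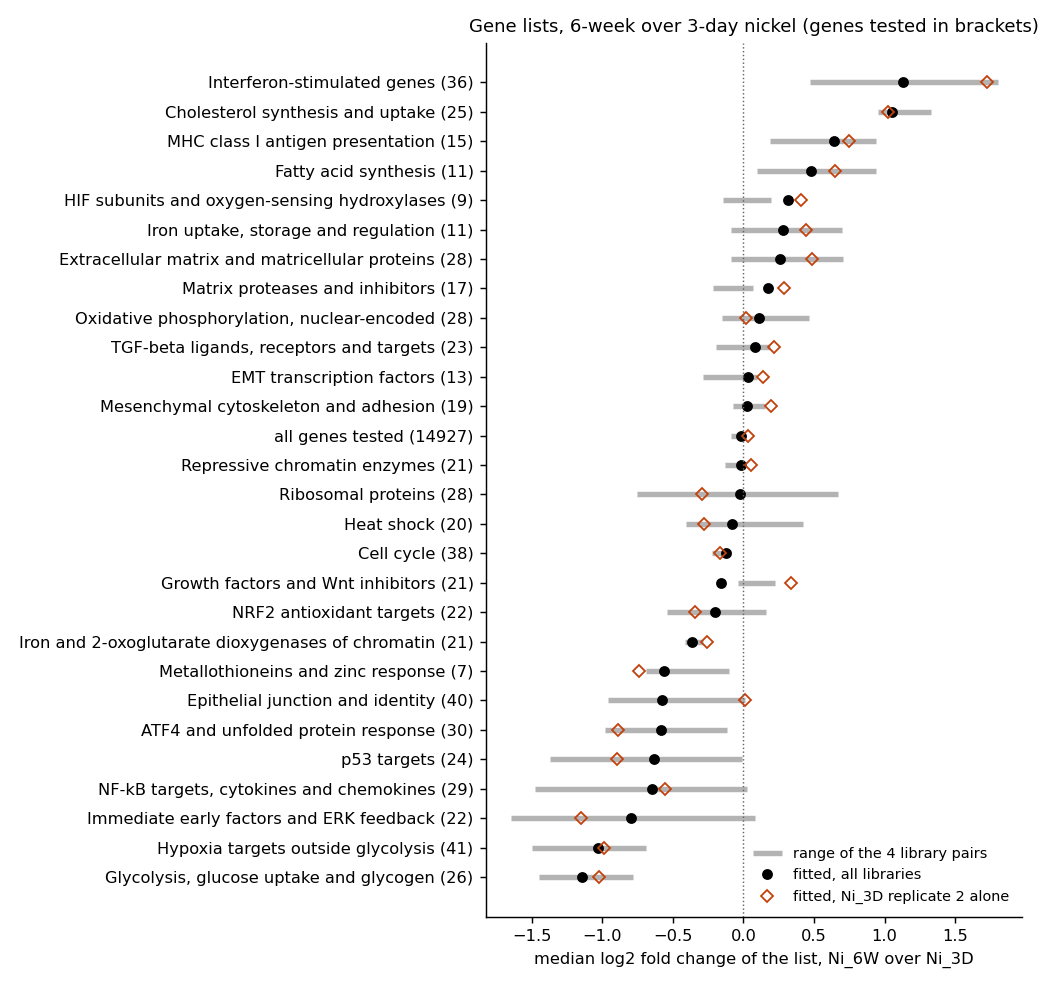
Median log2 fold change of each gene list, Ni_6W over Ni_3D (x axis), for 27 lists with the number of genes tested in brackets and for all genes tested. Black points are fitted medians, grey bars span the medians of the 4 pairs of libraries, and open diamonds use Ni_3D replicate 2 alone. The 2 lists of glycolysis and hypoxia genes lie lowest, at -1.14 and -1.03, and cholesterol synthesis at 1.05 has a narrow bar, while the bar of interferon-stimulated genes runs from 0.47 to 1.80.

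The 12 genes that stood lowest in Ni_6W by the rule were led by TMEM145, which encodes a transmembrane protein, at 27.9 and 30.7 CPM in Ni_3D and 0.698 and 2.08 CPM in Ni_6W. The 2 groups did not overlap, and the 6 controls lay between 1.35 and 2.89 CPM, so the high level was that of Ni_3D. Its log2 fold change was -4.46 (SE 0.54; edgeR, Benjamini-Hochberg adjusted p = 0.00771). CEBPA, a transcription factor of differentiation, stood at 3.93 and 6.23 CPM in Ni_3D and at 0.523 and 0.692 CPM in Ni_6W (-3.08, SE 0.61). BSN, which encodes a large scaffold protein of the presynapse, fell by 2.31 on the log2 scale and TES, which encodes testin, a protein of focal adhesions, by 2.22. TES was 50.3 and 79.8 CPM in Ni_3D and 10.5 and 17.6 CPM in Ni_6W, beside 5.73 to 16.6 CPM in the controls. The others were PRR22, KIAA1644, TMEM45A, C17orf107, PFKFB3, FAM162A, ARID3A and KCTD15, with log2 fold changes from -3.14 for PRR22 to -1.67 for KCTD15. PRR22, CEBPA, C17orf107, ARID3A and KCTD15 were not called with the trend of GC content taken out, described further on (edgeR, Benjamini-Hochberg adjusted p from 0.0731 to 0.0889). Of these 12 genes TMEM45A alone was not called with Ni_3D replicate 2 alone (edgeR, Benjamini-Hochberg adjusted p = 0.0702).

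The 12 genes that stood highest in Ni_6W were 6 genes of cholesterol synthesis and uptake, among them INSIG1, HMGCS1, MSMO1 and IDI1, described further on, and 6 others. PAMR1, which encodes a secreted peptidase-like protein, was 0.321 and 0.238 CPM in Ni_3D and 23.0 and 3.89 CPM in Ni_6W, with 0.588 to 4.15 CPM in the controls. Both Ni_6W libraries lay above both Ni_3D libraries, but 1 of them alone stood above the controls. ABI3BP, a matrix protein that binds collagen, was 4.57 and 2.92 CPM in Ni_3D and 47.0 and 30.0 CPM in Ni_6W, and the controls ran from 12.3 to 40.0 CPM. TNFSF10, the death ligand TRAIL, was 1.002 and 0.357 CPM beside 6.63 and 6.23 CPM. The remaining genes were OLFML2B, an olfactomedin-domain protein of the matrix (2.57), CDKN2B, the cyclin-dependent kinase inhibitor p15 (2.57), and TM4SF1, a surface protein of the tetraspanin-like family (2.33), with the log2 fold change in brackets. CDKN2B was 31.9 and 17.6 CPM in Ni_3D and 178 and 114 CPM in Ni_6W, which put both Ni_6W libraries above the 30.2 to 110 CPM of the controls. TNFSF10 and TM4SF1 were not called with the trend of GC content taken out (edgeR, Benjamini-Hochberg adjusted p = 0.0634 and 0.0709). PAMR1 and OLFML2B were not called with Ni_3D replicate 2 alone (edgeR, Benjamini-Hochberg adjusted p = 0.0611 and 0.0717), and 5 of the 12 genes, INSIG1, HMGCS1 and IDI1 among them, were called without Ni_6W replicate 1.

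Promoters of some genes that moved in either direction hold the core letters bound by HIF. Shown are 4 such promoters, from genes that fell and genes that rose. Only promoters with these letters could be taken, so a match in each was fixed in advance. The stretches are the 250 bases before the start of transcription in RefSeq on GRCh38.p14, a different build from that of the deposited files, and all 4 lie on the plus strand. Capitals mark ACGTG or GCGTG on either strand, where CACGTG counts on both strands.
TMEM145, chr19:42313059-42313308: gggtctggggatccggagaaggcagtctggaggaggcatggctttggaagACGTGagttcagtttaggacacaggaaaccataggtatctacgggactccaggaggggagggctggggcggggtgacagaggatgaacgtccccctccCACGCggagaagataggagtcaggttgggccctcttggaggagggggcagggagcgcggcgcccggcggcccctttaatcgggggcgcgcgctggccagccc
PGK1, chrX:78103998-78104247: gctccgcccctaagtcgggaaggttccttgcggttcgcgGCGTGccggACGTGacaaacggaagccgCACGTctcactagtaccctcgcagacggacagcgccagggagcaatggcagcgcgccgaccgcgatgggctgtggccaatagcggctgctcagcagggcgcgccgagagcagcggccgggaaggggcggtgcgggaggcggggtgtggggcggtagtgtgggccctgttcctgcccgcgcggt
INSIG1, chr7:155297628-155297877: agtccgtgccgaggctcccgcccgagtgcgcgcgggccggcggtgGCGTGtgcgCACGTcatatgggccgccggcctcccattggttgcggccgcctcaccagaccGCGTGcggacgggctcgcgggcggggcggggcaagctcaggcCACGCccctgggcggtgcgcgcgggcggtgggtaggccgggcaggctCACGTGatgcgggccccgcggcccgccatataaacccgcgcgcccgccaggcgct
MSMO1, chr4:165327419-165327668: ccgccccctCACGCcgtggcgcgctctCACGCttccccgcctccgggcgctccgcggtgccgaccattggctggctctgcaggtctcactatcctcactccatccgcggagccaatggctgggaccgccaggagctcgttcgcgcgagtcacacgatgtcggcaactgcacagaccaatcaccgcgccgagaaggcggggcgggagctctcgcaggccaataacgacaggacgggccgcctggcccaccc
TMEM145, INSIG1 and MSMO1 were taken by the naming rule and PGK1 was chosen after its values were seen. TMEM145, which fell, holds 2 matches, PGK1, which fell, holds 3, INSIG1, which rose, holds 6 and MSMO1, which rose, holds 2. Such letters stood in 43.1% of 27305 promoters of the same length. They stood in 15 of the 25 glycolysis promoters matched by symbol (60%), in 24 of 29 of the other hypoxia genes (82.8%) and in 15 of 18 of the cholesterol genes (83.3%). Of the genes called, 8 of 10 glycolysis genes (80%), 1 of 3 other hypoxia genes (33.3%) and 5 of 6 cholesterol genes (83.3%) held them. For the sterol regulatory element 1 short pattern of letters was searched, also on both strands. This pattern was found in 1 of the 18 cholesterol promoters (5.56%), in none of the 6 called, and in 0.125% of all promoters. Of the 10 called cholesterol genes, only these 6 had a promoter matched by symbol. Other forms of the element were not searched, so a promoter without a match may still hold one. A match is a description of letters and not a site of binding.

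Genes of glycolysis stood lower after 6 weeks in nickel than after 3 days, and a part of them passed the test. Of 26 genes of glycolysis, glucose uptake and glycogen that were tested, 10 fell, none rose and 16 did not pass, where 0.415% of all genes fell. The 10, listed in full to account for the calls and so partly outside the naming rule, were PFKFB3, PFKFB4, PGK1, ENO1, ALDOA, ENO2, GPI, GAPDH, TPI1 and PFKP, and the list's median log2 fold change was -1.14, beside -0.02 over all genes. In 23 of the 26 both Ni_6W libraries lay below both Ni_3D libraries (23.3% of all genes), and in 25 both Ni_3D libraries lay above all 6 controls (16.8% of all genes).

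PFKFB3, which makes fructose 2,6-bisphosphate, an activator of glycolysis, was 465 and 521 CPM in Ni_3D and 107 and 128 CPM in Ni_6W. The groups stood far apart. Both Ni_6W libraries lay below Control_6W replicate 2, at 164 CPM, and above all other controls, which ran from 58.8 to 84.4 CPM. Its log2 fold change was -2.07 (SE 0.32; edgeR, Benjamini-Hochberg adjusted p = 0.0197). PGK1, phosphoglycerate kinase, was 2592 and 2500 CPM in Ni_3D and 580 and 1083 CPM in Ni_6W, with 495 to 640 CPM in the controls. Ni_6W replicate 2 thus stayed above every control while replicate 1 lay among them. The log2 fold change of PGK1 was -1.61 (SE 0.25; edgeR, Benjamini-Hochberg adjusted p = 0.0197). ENO1, enolase 1, was 7851 and 8997 CPM in Ni_3D and 2252 and 3519 CPM in Ni_6W (-1.55, SE 0.24), and ALDOA, aldolase A, was 4433 and 5763 CPM beside 2175 and 2081 CPM (-1.26, SE 0.19). For ALDOA the 2 Ni_6W libraries agreed closely and stood above the controls, which reached 1825 CPM. PFKFB4, an enzyme of the same family as PFKFB3, was 158 and 143 CPM in Ni_3D and 23.1 and 55.2 CPM in Ni_6W. GAPDH, used by many as a reference gene, fell by 1.15 on the log2 scale, from 7294 and 8550 CPM to 3323 and 3799 CPM.

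In hg19, as the deposited files give them, PFKFB3 lies on chromosome 10 at 6244840 to 6277507, PGK1 on chromosome X at 77359666 to 77382324, ENO1 on chromosome 1 at 8921059 to 8939151 and TMEM145 on chromosome 19 at 42817477 to 42829214. SLC2A1, the glucose transporter GLUT1, and LDHA, lactate dehydrogenase A, which were chosen after their values were seen, did not pass. SLC2A1 was 624 and 673 CPM in Ni_3D and 60.8 and 318 CPM in Ni_6W, and LDHA was 1590 and 1940 CPM beside 291 and 916 CPM. In both genes Ni_6W replicate 2 stood over 3 times as high as replicate 1. With Ni_3D replicate 2 alone 8 of the 26 fell (0.749% of all genes), all but PFKFB4 and ENO2 of the 10. Without Ni_6W replicate 1, and without Ni_3D replicate 2, none passed, with medians of -0.88 and -1.12. Without Ni_6W replicate 2, 18 fell (4.27% of all genes) and 1 rose.

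**Figure D2:**
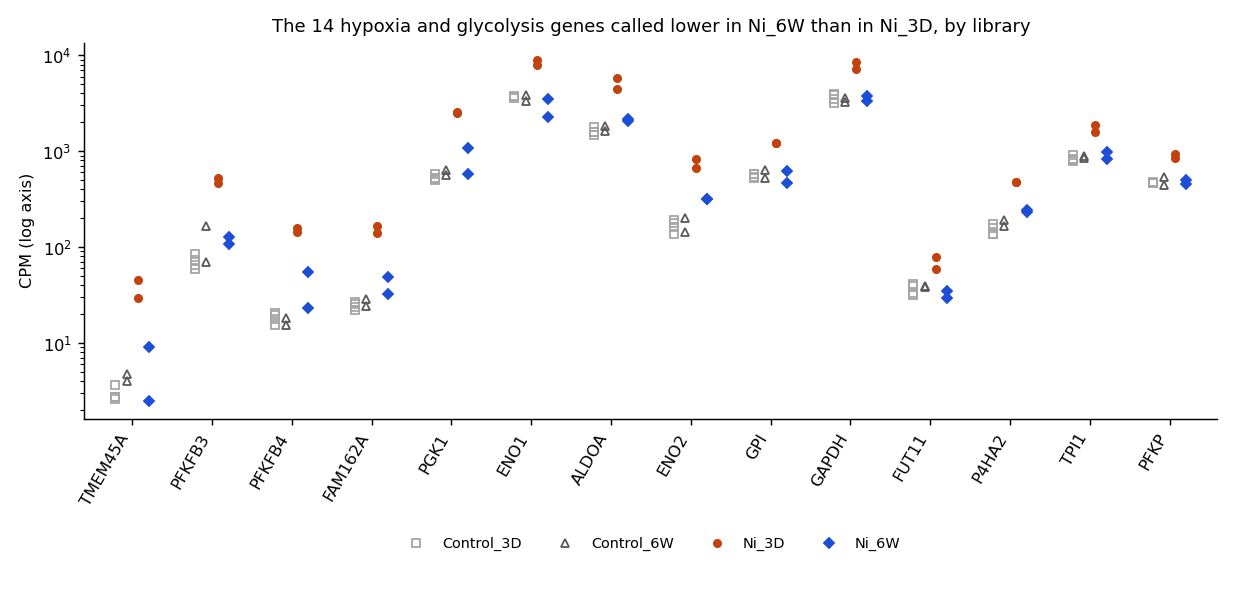
Levels of the 14 genes of the glycolysis and hypoxia lists that fell, in CPM on a log axis, one point per library, for Control_3D (open squares), Control_6W (open triangles), Ni_3D (circles) and Ni_6W (diamonds). In each gene both circles lie above both diamonds; PGK1 is at 2592 and 2500 CPM in Ni_3D and at 580 and 1083 CPM in Ni_6W.

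Hypoxia targets outside glycolysis were lower as well, with a wider spread between the Ni_6W libraries. Of 41 tested, 4 fell (0.415% of all genes), none rose and 37 did not pass. The median log2 fold change was -1.03, with 39 negative values, where 7629 of all 14927 genes were negative. The 4 were TMEM45A, a transmembrane protein, FAM162A, a mitochondrial protein of the hypoxic response, FUT11, a fucosyltransferase, and P4HA2, a collagen prolyl hydroxylase. FAM162A was 167 and 141 CPM in Ni_3D and 32.3 and 48.2 CPM in Ni_6W, and both Ni_6W libraries were above the 22.2 to 28.7 CPM of the controls. It fell by 1.94 on the log2 scale (SE 0.24; edgeR, Benjamini-Hochberg adjusted p = 0.00771) and was also called without Ni_6W replicate 1 (edgeR, Benjamini-Hochberg adjusted p = 0.0468). P4HA2 was 478 and 477 CPM in Ni_3D and 241 and 231 CPM in Ni_6W, beside 136 to 189 CPM in the controls. The 2 libraries of each group almost coincided, and the 6-week level stayed above every control.

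Genes that are widely used as readouts of HIF did not pass despite their distance. CA9, a carbonic anhydrase, was 628 and 368 CPM in Ni_3D and 40.8 and 53.1 CPM in Ni_6W, where the controls ran from 0.594 to 13.2 CPM. All Ni_3D libraries stood above all Ni_6W libraries, and both of these above all controls. Its log2 fold change was -3.41 (SE 1.17; edgeR, Benjamini-Hochberg adjusted p = 0.159). VEGFA, the vascular growth factor, was 341 and 440 CPM in Ni_3D and 37.1 and 108 CPM in Ni_6W (-2.43, SE 0.55; edgeR, Benjamini-Hochberg adjusted p = 0.0662). NDRG1, a stress-responsive gene, was 2618 and 1705 CPM beside 132 and 614 CPM (-2.54, SE 0.83; edgeR, Benjamini-Hochberg adjusted p = 0.142). In 26 of the 41 genes both Ni_6W libraries lay below both Ni_3D libraries (23.3% of all genes), and in 32 both Ni_3D libraries lay above all controls (16.8% of all genes). Both Ni_6W libraries lay above all controls in 9 of the 41 genes (11% of all genes) and in 7 of the 26 glycolysis genes. FAM162A and P4HA2 were called with Ni_3D replicate 2 alone, and FUT11 and TMEM45A were not. The count of 4 was 0 without Ni_3D replicate 2, 1 without Ni_6W replicate 1 (0.026% of all genes) and 16 without Ni_6W replicate 2 (4.27%).

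None of 9 tested transcripts of the oxygen-sensing machinery itself passed. The median was 0.31, with 5 positive and 4 negative values, from -1.57 to 0.82. Both Ni_6W libraries lay above both Ni_3D libraries in 4 genes (18.4% of all genes) and below them in 3 (23.3%). Without Ni_6W replicate 1 the median was -0.09. DESeq2 called 1 gene lower (3.32% of all genes). HIF1A, which encodes the oxygen-regulated subunit HIF-1α, was 143 and 95.0 CPM in Ni_3D and 164 and 256 CPM in Ni_6W, with 86.8 to 333 CPM in the controls. EPAS1, which encodes HIF-2α, was 242 and 212 CPM beside 353 and 212 CPM. Both Ni_6W libraries lay above both Ni_3D libraries in HIF1A, and the groups overlapped in EPAS1. On the log2 scale the difference was 0.82 (SE 0.55) for HIF1A and 0.32 (SE 0.37) for EPAS1.

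Cholesterol genes went the other way, and 8 of them went from below the level of unexposed cells to above it. Of the 25 tested genes of cholesterol synthesis and uptake, 10 rose, none fell and 15 did not pass, where 0.288% of all genes rose. The 10 that rose included INSIG1, MSMO1, HMGCS1, IDI1, FDFT1, CYP51A1 and FDPS, and the list's median log2 fold change was 1.05, with 24 positive values. In 20 of the 25 both Ni_6W libraries lay above both Ni_3D libraries (18.4% of all genes). In 11 both Ni_3D libraries lay below all 6 controls (14.9% of all genes), in 16 both Ni_6W libraries lay above all 6 (11% of all genes), and in 8 both held at once (0.409% of all genes). The 8 included INSIG1, MSMO1, HMGCS1, IDI1, FDFT1 and CYP51A1.

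INSIG1, the sterol-regulated anchor of the SREBP complex, was 51.3 and 29.2 CPM in Ni_3D and 442 and 214 CPM in Ni_6W, around a control range of 62.2 to 76.9 CPM. The lower Ni_6W library was still above every control and the higher Ni_3D library still below. INSIG1 rose by a log2 fold change of 3.03 (SE 0.38; edgeR, Benjamini-Hochberg adjusted p = 0.00771). With Ni_3D replicate 2 alone the log2 fold change of INSIG1 was 3.52, and it was also called.

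The enzymes of the pathway that rose sit at its start, its middle and its end. HMGCS1, an early enzyme of the pathway, was 31.5 and 22.5 CPM in Ni_3D and 118 and 270 CPM in Ni_6W (2.85, SE 0.50; edgeR, Benjamini-Hochberg adjusted p = 0.0369). IDI1, the isomerase of isopentenyl diphosphate, was 28.3 and 28.1 CPM beside 98.0 and 92.4 CPM (1.75, SE 0.23), with libraries of each group close together. FDFT1, squalene synthase, was 71.8 and 88.2 CPM beside 290 and 224 CPM (1.69, SE 0.21; edgeR, Benjamini-Hochberg adjusted p = 0.00771). MSMO1, a sterol demethylating oxidase, was 16.2 and 9.67 CPM beside 105 and 94.0 CPM (2.95, SE 0.42). In hg19 INSIG1 lies on chromosome 7 at 155089486 to 155101945 and HMGCS1 on chromosome 5 at 43287572 to 43313614. PMVK, phosphomevalonate kinase, chosen after its values were seen, was the single negative member at -0.47 (SE 0.21) and did not pass.

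With Ni_3D replicate 2 alone 9 of the 25 rose (0.71% of all genes), all of the 10 but FDPS, and the median was 1.02. Without Ni_6W replicate 1 the count was 8 (0.0779% of all genes), without Ni_6W replicate 2 it was 14 (3.49%), and without Ni_3D replicate 2 it was 1. The medians under these settings lay between 1.02 and 1.14. Of the 11 fatty acid synthesis genes tested, ELOVL5, an elongase of polyunsaturated fatty acids, rose and 10 did not pass. ELOVL5 was 85.6 and 89.7 CPM in Ni_3D and 158 and 192 CPM in Ni_6W (0.997, SE 0.20; edgeR, Benjamini-Hochberg adjusted p = 0.045), and was not called with Ni_3D replicate 2 alone.

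**Figure D3:**
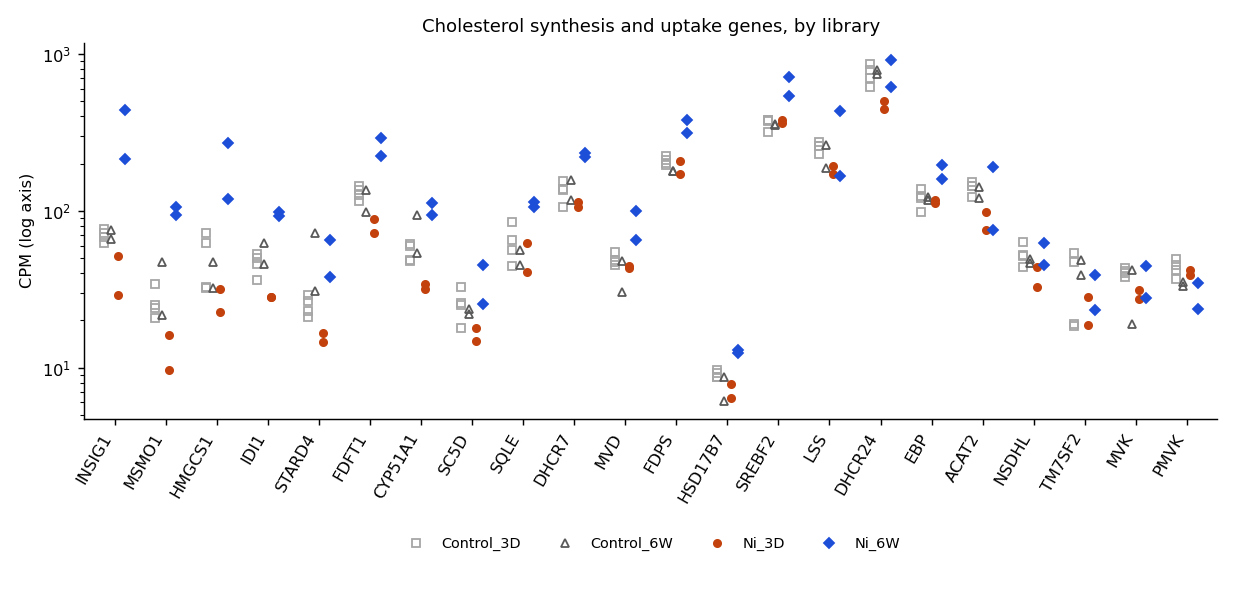
Levels of cholesterol synthesis and uptake genes of the list, not all of them shown, in CPM on a log axis, one point per library, ordered by log2 fold change. INSIG1 at the left is at 51.3 and 29.2 CPM in Ni_3D (circles) and 442 and 214 CPM in Ni_6W (diamonds), with the controls (open symbols) between; the groups overlap or reverse at the right end.

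Base composition moved with the comparison. Across 14731 genes with a known transcript, the log2 fold change fell with GC content (Spearman's rho -0.30, a description over genes), and the median went from 0.29 in the lowest of 5 equal classes of GC content to -0.23 in the highest. Ni_6W replicate 2 carried this trend, with rho of -0.55 and -0.54 against the 2 Ni_3D libraries, and Ni_6W replicate 1 did not, with 0.09 and -0.06. Genes that rose had a median GC content of 42.9% and genes that fell 59.1%, beside 50.1% over all genes. With the trend of each library taken out, 40 genes were higher (0.272%) and 21 lower (0.143%), 61 in all (0.414%), and 47 of the 105 were called again. Cholesterol genes then counted 13 higher of 25, with a median of 1.08. Glycolysis counted 4 lower of 26 and the other hypoxia targets 3 of 41, with medians of -0.98 and -0.99. PGK1, PFKFB3 and FAM162A were among those still called and ENO1 was not (edgeR, Benjamini-Hochberg adjusted p = 0.0562).

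**Figure D4:**
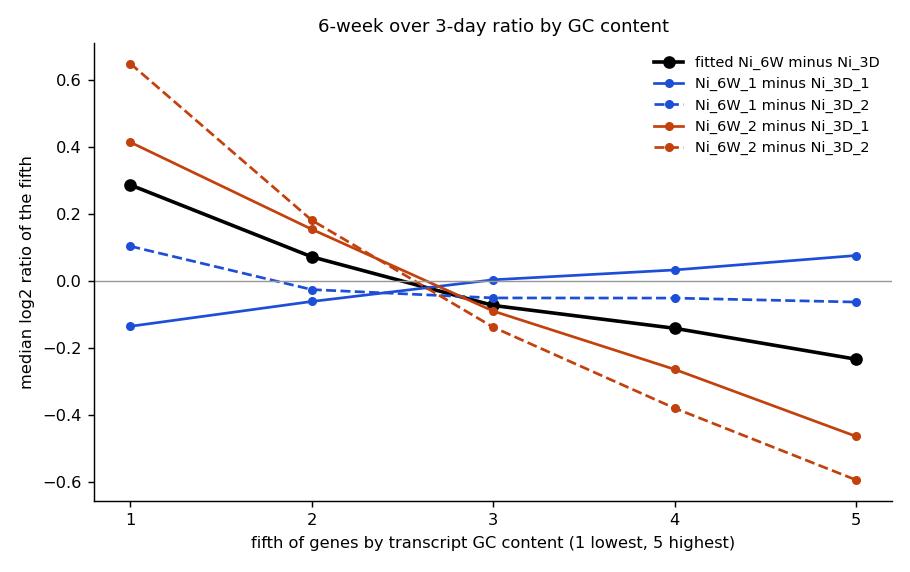
Median log2 ratio of Ni_6W over Ni_3D (y axis) in 5 equal classes of genes ordered by transcript GC content (x axis, 1 lowest), for the fit (black) and for each pair of libraries. The lines of Ni_6W replicate 2 fall steeply, to -0.46 and -0.59 in the highest class, and those of Ni_6W replicate 1 stay between -0.14 and 0.10.

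The change was also taken relative to each exposure's own controls, as the response at 6 weeks minus the response at 3 days. No gene passed in edgeR after Benjamini-Hochberg adjustment, with 1630 at an unadjusted p under 0.05 (10.9% of genes), and DESeq2 called 190. Of the 25 cholesterol genes 17 had an unadjusted p under 0.05, of the 26 glycolysis genes 21, and of the 41 other hypoxia targets 17. INSIG1 had a difference of 3.02, HMGCS1 of 3.19, PFKFB3 of -2.80 and PGK1 of -1.80 on the log2 scale. The count depended on the Control_3D libraries, with 101 genes without replicates 3 and 4 and 0 without replicates 1 and 2. This contrast shares its Ni_3D and Ni_6W libraries with the direct comparison, so the 2 are not independent.

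The series title names ZEB1, a transcription factor that silences CDH1 when epithelial cells turn mesenchymal (EMT), on chromosome 10 at 31610064 to 31818742 in hg19. ZEB1 stood at 13.2 and 14.5 CPM in Ni_3D and at 15.9 and 17.8 CPM in Ni_6W, with a log2 fold change of 0.28 (SE 0.85; edgeR, Benjamini-Hochberg adjusted p = 0.888). The 4 libraries lay close together and above all 6 controls. The controls split, with Control_3D replicates 1 and 2 at 11.9 and 12.4 CPM and the other 4 between 0.602 and 1.76 CPM. Of 13 EMT transcription factors tested none passed, and the median was 0.03. ZEB2 was 67.1 and 63.9 CPM beside 50.8 and 95.9 CPM, and SNAI2 was 1.28 and 3.04 CPM beside 0.523 and 0.865 CPM. ZEB2 overlapped between the groups. In SNAI2 both Ni_6W libraries lay below both Ni_3D libraries, with a log2 fold change of -1.67 (SE 0.86) that did not pass.

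Among mesenchymal and matrix genes 1 rose. Of 19 mesenchymal cytoskeleton and adhesion genes none passed (median 0.02), of 17 matrix proteases and inhibitors none (median 0.17), and of 28 matrix genes SPARC rose (median 0.26). SPARC, a secreted collagen-binding glycoprotein, was 495 and 274 CPM in Ni_3D and 1656 and 913 CPM in Ni_6W, with 1019 to 1616 CPM in the controls. Both Ni_3D libraries lay below all controls, and the Ni_6W libraries lay on either side of the control range. It rose by 1.74 (SE 0.34; edgeR, Benjamini-Hochberg adjusted p = 0.0423), and by 2.26 with Ni_3D replicate 2 alone, where it was also called. VIM, the filament protein vimentin, was 2398 and 4273 CPM in Ni_3D beside 2282 and 1849 CPM in Ni_6W (-0.69, SE 0.32). FN1, fibronectin, was 1101 and 692 CPM beside 567 and 841 CPM, and CDH2, neuronal cadherin, was 138 and 118 CPM beside 113 and 216 CPM. FN1 and CDH2 overlapped between the groups.

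The epithelial list changed with Ni_3D replicate 1. Of 40 epithelial junction and identity genes none passed with both Ni_3D libraries. The median was -0.57 with both and 0.01 with Ni_3D replicate 2 alone. CDH1, the epithelial cadherin, stood at 29.2 CPM in the first Ni_3D library but at 0.0595 CPM in the other, beside 2.05 and 1.04 CPM in Ni_6W. Its log2 fold change was -3.21 (SE 2.20) and turned to 4.65 with Ni_3D replicate 2 alone, and neither passed. EPCAM, which joins epithelial cells to each other, had 9.66 and 2.01 CPM beside 2.35 and 1.56 CPM, and its log2 fold change of -1.56 went to 0.00 with replicate 2 alone. KRT8, a keratin of simple epithelium, was abundant in all 4 libraries, with 412 and 448 CPM in Ni_3D and 186 and 405 CPM in Ni_6W.

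Genes of the direct response to metal did not pass. Of 7 metallothionein and zinc genes tested the median was -0.56, and MT2A, the most abundant metallothionein here, was 645 and 1199 CPM in Ni_3D and 195 and 289 CPM in Ni_6W (-1.93, SE 0.58; edgeR, Benjamini-Hochberg adjusted p = 0.12). The groups did not overlap, and both Ni_6W libraries were inside the 140 to 741 CPM of the controls. Of 22 NRF2 antioxidant targets and regulators KEAP1 fell and 21 did not pass. KEAP1, which encodes the protein that holds NRF2 back, was 138 and 229 CPM beside 76.3 and 89.3 CPM (-1.15, SE 0.23; edgeR, Benjamini-Hochberg adjusted p = 0.045), and it was also called with Ni_3D replicate 2 alone (-1.44). The controls of KEAP1 lay at 153 to 176 CPM, above both Ni_6W libraries and between the 2 Ni_3D libraries. With the GC trend taken out KEAP1 was not called (log2 fold change -0.89, edgeR, Benjamini-Hochberg adjusted p = 0.0978). HMOX1, haem oxygenase 1, was 51.0 and 95.5 CPM beside 58.8 and 42.0 CPM. Of 11 iron genes, 20 heat shock genes and 30 genes of ATF4 and the unfolded protein response none passed, with medians of 0.28, -0.08 and -0.59.

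In several lists the replicates differed from each other by as much as the groups. The 24 p53 targets tested had a median of -0.63 with no call, and of -0.90 with 4 lower genes (0.749% of all genes) with Ni_3D replicate 2 alone. CDKN1A, the cell cycle inhibitor p21, stood at 173 CPM in the first Ni_3D library but at 763 CPM in the other, beside 153 and 173 CPM in Ni_6W. It did not pass (-1.52, SE 0.58) and was called with Ni_3D replicate 2 alone (-2.20; edgeR, Benjamini-Hochberg adjusted p = 0.0456). The 22 immediate early genes had a median of -0.79, and their median difference between Ni_3D replicates 1 and 2 was -1.17. The 29 NF-kB targets had a median of -0.65 and a median difference between Ni_6W replicates 1 and 2 of -1.62: no gene was called, and 11 were lower without Ni_6W replicate 2 (4.27% of all genes).

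Lists of general cell functions held 1 call. Of 38 cell cycle genes CDKN2B rose and 37 did not pass (median -0.12). None of 28 ribosomal protein genes, 28 nuclear-encoded genes of oxidative phosphorylation, 23 genes of TGF-beta signalling, 21 growth factor and Wnt inhibitor genes and 21 repressive chromatin enzymes passed, with medians of -0.02, 0.11, 0.08, -0.16 and -0.02. With Ni_3D replicate 2 alone the median of the growth factor list turned to 0.34 and that of the repressive chromatin enzymes to 0.06. The 21 iron- and 2-oxoglutarate-dependent dioxygenases of chromatin, the enzyme class to which the HIF hydroxylases are related, had a median of -0.36 and no call, and in 13 of them both Ni_6W libraries lay below both Ni_3D libraries (23.3% of all genes). Fibroblast markers summed to 1891 and 914 CPM in Ni_3D and 4473 and 2308 CPM in Ni_6W, within the 2398 to 5071 CPM of the controls except for Ni_6W replicate 2 and both Ni_3D libraries, and COL1A1 made up most of that sum, at 1461, 533, 3633 and 1650 CPM in the same order. Endothelial markers summed to at most 2.48 CPM in the 4 libraries.

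**Figure D5:**
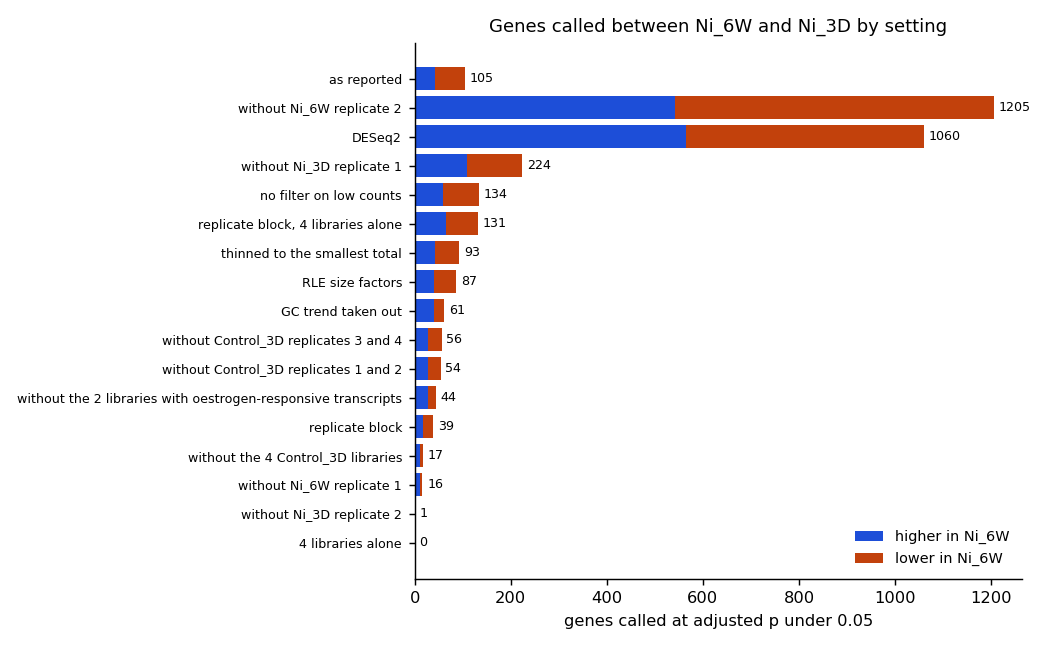
Number of genes called between Ni_6W and Ni_3D (x axis) under each setting, split into genes higher and lower in Ni_6W. The count as reported is 105, and it runs from 0 in a fit of the 4 libraries alone to 1205 without Ni_6W replicate 2.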

How the data were processed

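Libraries were made from total RNA with a TruSeq kit, per the labels. The authors deposited a raw read count per RefSeq gene for each library (25411 genes). The RPKM beside each count, made by the authors per the file headers, was not used for any result. The submitters' processing notes name STAR 2.4, DESeq, DESeq2, GRCh37 and hg19, with roles, counting rule and strand not given in the sources used here, so reads of overlapping or near-identical genes cannot be told apart. Gene starts are printed as deposited, which gene lengths show to be 1-based.

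All libraries but the clones (14, in 6 groups) entered a single fit in edgeR 4.0.16 under R 4.3.3 (TMM, filterByExpr with minimum count 10 and minimum total 15, robust quasi-likelihood F test, Benjamini-Hochberg adjustment, called at an adjusted p under 0.05). The biological coefficient of variation was 29.7%. CPM are TMM-normalised. The test was tried on simulated data. The alternatives were RLE size factors, DESeq2 1.42.0, thinning, a fit without the filter, fewer libraries, a replicate block and a GC offset (transcripts of GENCODE 29); the last and the settings without pairs of control libraries were chosen after seeing the data.

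Named genes were the 12 highest and 12 lowest called genes whose mean reached 5 CPM in either group, with no overlap, ranked by the smallest of the 4 log2 ratios between a Ni_6W and a Ni_3D library (prior count 2) with unnamed loci left out. Added were ZEB1, ZEB2, SNAI2, VIM, FN1, CDH2, CDH1, EPCAM, HIF1A, EPAS1, CA9, NDRG1, VEGFA, MT2A, HMOX1 and HMGCS1, and up to 4 called or 2 abundant members of each list. The promoter rule took only called genes with the core letters in their promoter and allowed 5, of which the first 3 are printed. The libraries, lists and rule were chosen with earlier results of these data known. Some genes are not reported here.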

Additional observations from a re-analysis of the deposited data

Results flagged for a closer look

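Each value below stood apart from the other 3 Control_3D libraries by more than Dixon's 95% limit for 4 samples; chance flags about 1 in 20 groups. In Control_3D replicate 1 CDH1 was 11.4 CPM, EPCAM 5.97 CPM and GREB1, an oestrogen-responsive gene, 34.8 CPM, all above the other controls; this is the control library that, like Ni_3D replicate 1, held oestrogen-responsive transcripts. HSPA5, a chaperone of the endoplasmic reticulum, was 1000.0 CPM in the same library. In Control_3D replicate 3 OAS3, an antiviral enzyme, was 347.0 CPM and TMEM45A was 3.63 CPM. In Control_3D replicate 4 PAMR1 was 1.64 CPM and ZEB2 was 83.1 CPM.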

How the results depend on the processing

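All 105 called genes kept their direction in each of the 16 alternatives, and so did the 32 called genes named here in 512 of 512 values. These genes were chosen by their calls in the same libraries, so a kept direction was largely fixed in advance. The count of 105 calls was 1060 by DESeq2, 61 with the GC trend taken out, 0 in a fit of the 4 libraries alone, 17 without the 4 Control_3D libraries, 54 without Control_3D replicates 1 and 2, 56 without replicates 3 and 4, and 44 without Control_3D replicate 1 and Ni_3D replicate 1. The cause of these changes was not tested. A fit of the 4 libraries alone also has fewer samples. Leaving out 1 library gave between 1 and 1205. RLE size factors, no filter and thinning to the smallest total gave 87, 134 and 93. Replicate numbers are not said to pair libraries, and the differences between replicates 1 and 2 in Ni_3D and Ni_6W correlated at -0.083 over genes. With the replicate block the count was 39, of which 28 were shared, and 131 in the 4 libraries alone. For the difference of the responses, the count of 0 was 190 by DESeq2, 70 with the replicate block, 10 without a filter, 4 with the GC trend taken out, 101 without Control_3D replicates 3 and 4, and 1 without the 2 libraries with oestrogen-responsive transcripts; leaving out 1 library gave between 0 and 302, with 45 without Control_6W replicate 1, 302 without Ni_6W replicate 2 and 2 without Ni_3D replicate 1. The log2 fold change changed sign in 30 of the 64 uncalled genes named, and the causes were not tested. Neither the reported value nor the value of opposite sign was called. The ranges that follow also hold values of the reported sign, and some of those were called. Leaving out 1 library gave these ranges: FTL -1.06 to 1.56, RPL8 -0.513 to 0.255, RPS19 -0.924 to 0.0898, CD68 -0.571 to 0.98, NKX2-1 -0.202 to 0.493, ABCA3 -0.248 to 0.186, DNMT1 -0.464 to 0.0487, AGER -1.21 to 0.243, TCF3 -0.591 to 0.038, KDM5C -0.494 to 0.114, ZEB2 -0.364 to 0.554, HLA-C -0.339 to 0.502, IGFBP7 -0.334 to 0.34, HSP90AB1 -0.401 to 0.383, AXL -0.59 to 0.145, JUND -0.855 to 0.552, EPAS1 -0.0931 to 0.639, ATP5B -0.26 to 0.253, CDH2 -0.175 to 0.758, FN1 -0.656 to 0.0566, FTH1 -0.747 to 0.27, HMOX1 -0.891 to 0.0148, JUN -1.22 to 0.27, KRT19 -4.42 to 1.13, EPCAM -2.26 to 0.00137, NGFR -0.434 to 1.93, TNFRSF10B -0.756 to 0.443, CDH1 -4.18 to 4.65, HDAC1 -0.0309 to 0.394, MMP14 -0.236 to 0.818. With the GC trend taken out the value was RPL8 0.111, ABCA3 0.184, AXL 0.0788, JUND 0.269, ATP5B 0.0526. In the 4 libraries alone the value was ABCA3 0.00284. By DESeq2 the value was ABCA3 0.0101. With RLE size factors the value was ABCA3 0.00947. Without Control_3D replicates 1 and 2 the value was ABCA3 0.0121. Without Control_3D replicates 3 and 4 the value was ABCA3 0.00119. Without the 2 libraries with oestrogen-responsive transcripts the value was ABCA3 0.088, FN1 0.0557, KRT19 1.13, CDH1 4.64. Depth limits low genes most in Ni_6W replicate 2, the smallest library of the comparison. A p that misses the threshold does not show equal levels.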

Other observations

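Interferon-stimulated genes had the highest median of the 27 lists, 1.13, and none of 36 tested was called in edgeR after Benjamini-Hochberg adjustment. DESeq2 called 7 of the 36 higher (3.79% of all genes). The log2 fold change was positive in 34 of them, and in 25 both Ni_6W libraries lay above both Ni_3D libraries (18.4% of all genes). In 12 both Ni_3D libraries lay below all 6 controls (14.9% of all genes), and in 14 both Ni_6W libraries lay within the controls' range (25.7% of all genes). OAS1, an antiviral sensor of double-stranded RNA chosen after its values were seen, was 2.68 and 1.08 CPM in Ni_3D and 14.9 and 19.98 CPM in Ni_6W, with controls of 3.35 to 19.6 CPM (log2 fold change 3.22, SE 0.69; edgeR, Benjamini-Hochberg adjusted p = 0.0568). The median over the list was 1.73 with Ni_3D replicate 2 alone and 0.77 without that library.

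Genes of antigen presentation by MHC class I had a median of 0.64, with 13 of 15 values positive and none called. HLA-B, a heavy chain, was 1733 and 1232 CPM in Ni_3D and 3091 and 1652 CPM in Ni_6W, so that Ni_6W replicate 2 lay below Ni_3D replicate 1. HLA-C was 1626 and 1698 CPM beside 2351 and 1312 CPM. Reads of HLA genes can be shared between near-identical members, which makes these values uncertain.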
